A study of Gallus gallus with 54 samples.

Results

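The transcripts of dopamine synthesis, vesicular packaging and dopamine receptors were followed across all 14 groups of a chick retina experiment. The genes were chosen by name: tyrosine hydroxylase (TH), DDC, SLC6A3, SLC18A2 and every symbol beginning with DRD. Of these 9 names 8 had an entry among the 24599 gene names of the deposited table. SLC6A3, the plasma membrane dopamine transporter, is not analysed here. All 8 genes passed the filter on low counts, which kept 15746 genes. TH lies on chromosome 5 (galGal5, 13714517 to 13730918), DDC on chromosome 2 (81012156 to 81057410) and SLC18A2 on chromosome 6 (29166114 to 29183730). DRD1 lies on chromosome 13 (10024750 to 10028157), DRD5 on chromosome 4 (79081660 to 79083126), DRD2 on chromosome 24 (5726541 to 5731611), DRD3 on chromosome 1 (82979190 to 82989119) and DRD4 on chromosome 5 (520312 to 526176).

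RNA was taken from whole retina of male White Leghorn chicks, raised for 6 days with 12 h of light a day, in 54 libraries. The groups were untreated birds, birds under a translucent diffuser (form-deprivation myopia, FDM), FDM with an intravitreal injection of atropine, pirenzepine, ADTN or TPMPA, and recovery, with the diffuser taken off after 3 days of wear. Each was sampled at 4 h, at an age of 7 days, and at 24 h, at an age of 8 days. The 24 h drug birds were injected again 4 h before collection. The labels do not give the age at which recovery birds were fitted with diffusers. The FDM groups can therefore not be read as the starting state of recovery. There were 4 libraries in 12 of the groups and 3 in the others, which were untreated at 24 h and recovery at 4 h. Atropine and pirenzepine block muscarinic acetylcholine receptors, ADTN is a dopamine receptor agonist, and TPMPA blocks GABA-C receptors. No group injected with vehicle alone was analysed here, so drug and injection cannot be told apart in a comparison with FDM. The labels do not say that the libraries of a group came from separate birds, so p-values measure the spread between samples, which may be technical.

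Dopamine is made in the retina by a sparse class of amacrine cells. TH converts tyrosine to L-DOPA and limits the rate of the pathway, DDC (aromatic amino acid decarboxylase) converts L-DOPA to dopamine, and SLC18A2, the vesicular monoamine transporter, loads it into vesicles. Released dopamine acts on D1-class receptors (DRD1, DRD5), which raise cyclic AMP, and on D2-class receptors (DRD2, DRD3, DRD4), which lower it, and it is known as a light-driven signal that slows eye growth. In whole-retina RNA, fewer cells of a type and less RNA per cell cannot be told apart.

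Total counts ran from 7.4 to 24.8 M a library, with a median of 14.8 M. Marker genes of every retinal class were present in all libraries: summed levels ran from 1320 to 1950 CPM (counts scaled to library size) for the 7 amacrine markers tested and from 1500 to 3230 CPM for the 6 photoreceptor markers tested. Markers of tissue next to the retina varied more between libraries, from 140 to 1200 CPM for all 9 pigment epithelium genes, from 40.9 to 382 CPM for 11 of 13 vessel and pecten genes, and from 68.2 to 218 CPM for all 7 leukocyte genes. Among 7 erythroid genes 2 could be tested, with a sum of 0 to 16.6 CPM, and HBZ had no count. The vessel sum differed between groups: it was 42.8 to 52.8 CPM in untreated retina at 24 h, 91.3 to 212 under FDM and 159 to 284 in recovery at that time. With the vessel level as a term in the model, as without it, 8 of the 96 member tests of the main comparisons had an unadjusted p under 0.05 and 0 passed. In ADTN-treated retina at 24 h, library 4 stood apart: it had 9.97 M counts, the lowest TH and DRD1 and the highest DRD5 and DRD4 of its group. Results that rest on it are given with and without it. Among 10 tested clock genes, of 12 listed, 14 of 120 tests in the main comparisons passed, 5 higher and 9 lower. Among 9 tested immediate early genes, of 10 listed, 20 of 108 passed, 16 higher and 4 lower. Over all genes 0.593% passed in these comparisons.

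DRD4 was by far the most abundant of the 8 transcripts. To compare genes, levels were divided by transcript length. DRD4 stood at 200 ± 23.9 CPM per kb (SD, n = 54), above 98.6% of the tested genes. The D1-class receptors followed, with DRD1 at 39.7 ± 3.77 and DRD5 at 22.4 ± 2.86 CPM per kb. DDC, at 15.5 ± 2.52 CPM per kb, was close to the median of all tested genes, which was 15.1. SLC18A2 and TH were scarcer, at 4.01 ± 0.809 and 2.47 ± 0.827 CPM per kb. DRD2 was at a similar level (4.08 ± 0.723), and DRD3 was the lowest at 0.801 ± 0.29 CPM per kb. A further receptor entry outside the chosen names, for the D1C receptor found in birds and fish, held 13 counts over all 54 libraries.

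**Figure D1:**
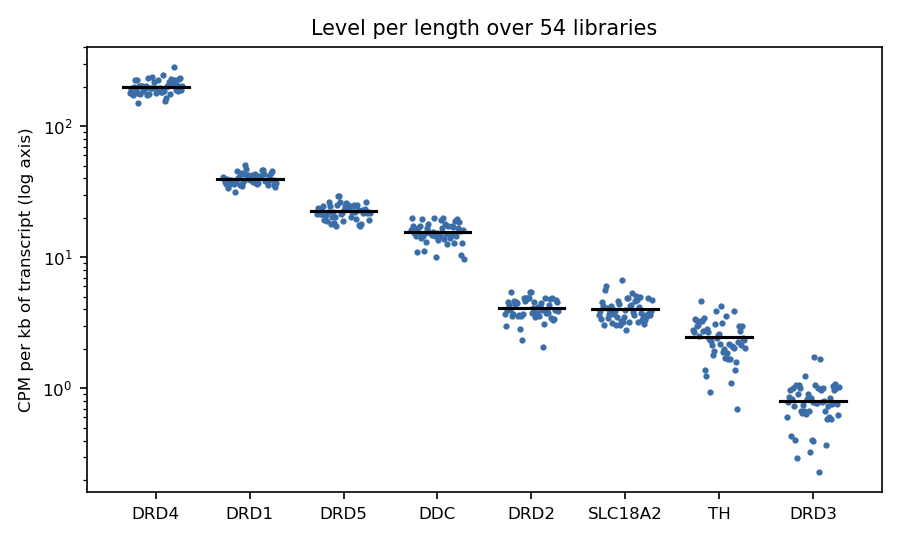
Level of the 8 transcripts in CPM per kb of transcript (log axis); each point is a library (n = 54 per gene) and each bar the mean. DRD4, at a mean of 200, lies above every other member in every library, and TH and DRD3, at 2.47 and 0.801, are the lowest.

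TH and DRD3 had the fewest counts and the widest spread. TH was covered by a median of 57.5 counts a library (11 to 166) and DRD3 by 19 (6 to 38), against 3640.5 for DRD4 (2003 to 5749). The spread between libraries of the same group, as a coefficient of variation, was 8.03% for DRD1, 9.45% for DRD5 and 11% for DRD4. It reached 28.4% for TH and 33.7% for DRD3. Counting error alone would give 13.2% for TH, 22.9% for DRD3 and 1.66% for DRD4 at their median counts, so the libraries of a group differed by more than counting error.

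No dopamine transcript passed the test in any of the 12 main comparisons (edgeR quasi-likelihood test, Benjamini-Hochberg adjustment over 15746 genes, threshold 0.05). Of the 96 tests, 8 had an unadjusted p under 0.05, or 8.33%, against 11.1% over all genes, and the smallest adjusted p was 0.115. DESeq2 and limma voom also called 0, with 8 and 10 tests at an unadjusted p under 0.05. At 4 h, the share of all genes called was 0.171% for FDM against untreated, 1.17% for atropine against FDM, 2.09% for pirenzepine, 0.756% for ADTN, 0.47% for TPMPA and 0.0381% for recovery against untreated. At 24 h, in the same order, it was 0%, 0.0953%, 1.63%, 0.0381%, 0% and 0.654%. The members' median log2 change lay between -0.191 and 0.057 in these comparisons, where that of all genes lay between -0.007 and 0.023.

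The size of change that the data leave possible differed between genes. The 95% interval of the log2 change lay within 1 of 0 in 86 of the 96 tests. To either side of the estimate it reached, at the median of the 12 comparisons, 1.12-fold for DRD1, 1.15-fold for DRD5, 1.16-fold for DRD4 and 1.24-fold for DDC. For TH it was 1.54-fold and for DRD3 1.72-fold, so a moderate change of these 2 was not detectable with these libraries. When the 14 groups were ordered by mean level, each group overlapped its neighbour in all 13 neighbouring pairs, for all 8 genes. Neighbours in this order are the closest groups, so the overlap does not limit differences between groups farther apart. DRD5, for one, read at least 36.6 CPM with TPMPA at 4 h and at most 33.7 CPM with ADTN at 24 h.

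**Figure D2:**
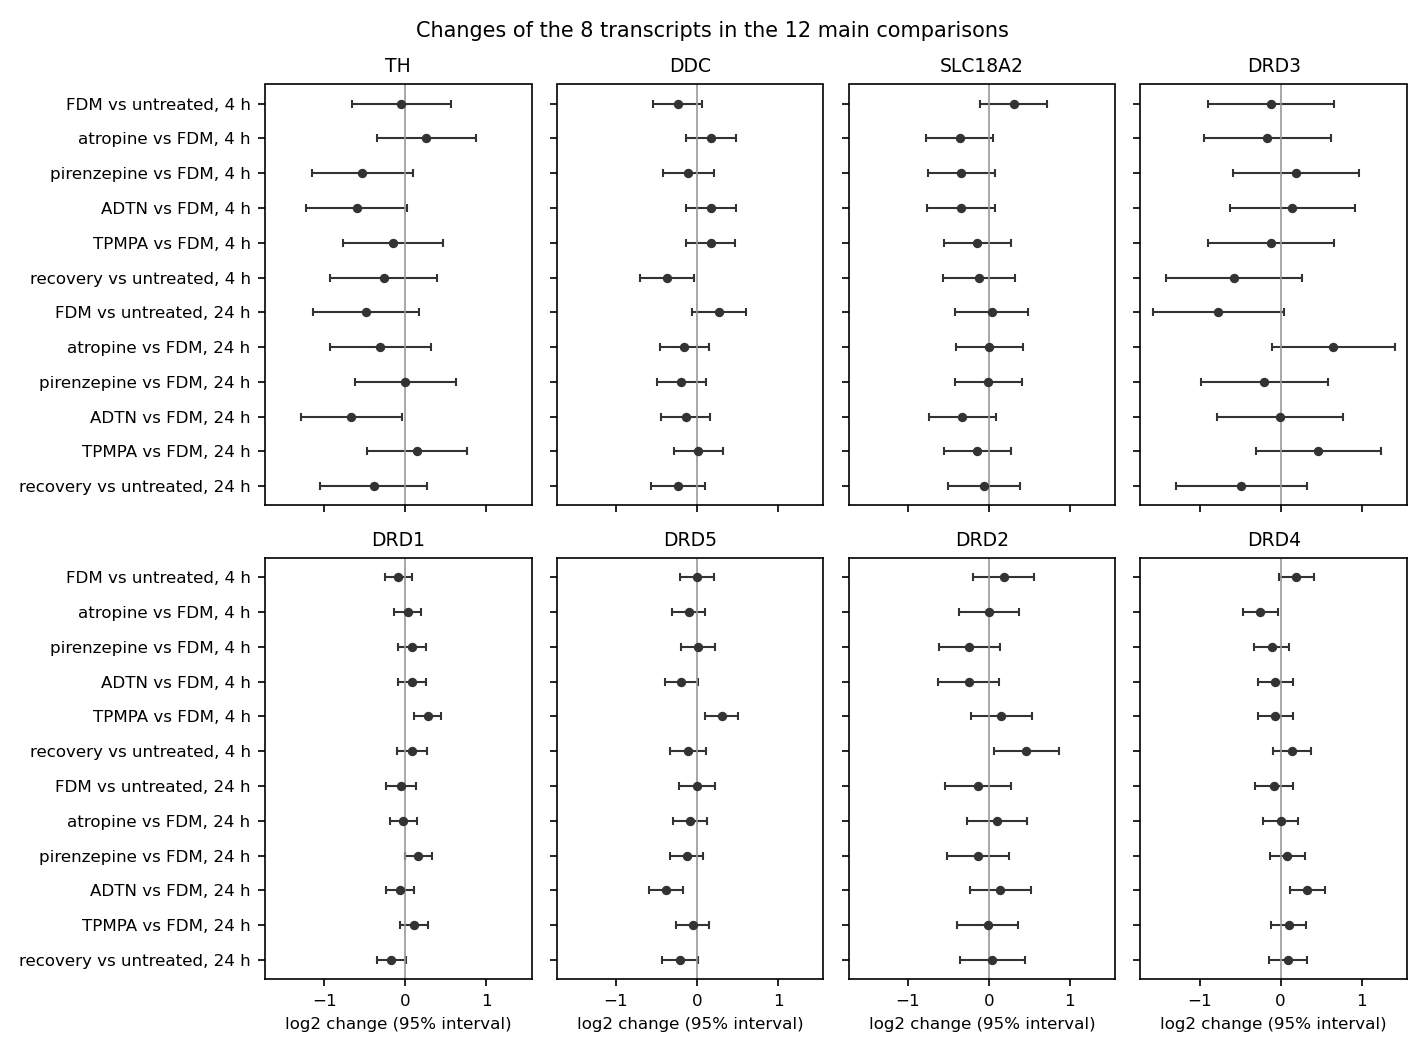
Log2 change (points) and 95% interval (bars) of each transcript in the 12 main comparisons. The intervals are widest for DRD3 and TH and narrowest for DRD1, and 8 of the 96 intervals leave out 0.

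TH, the rate-limiting enzyme, ranged from 2.28 ± 0.896 CPM (SD, n = 4) with ADTN at 24 h to 5.64 ± 1.29 CPM with atropine at 4 h. With ADTN at 24 h the 4 libraries read 3.25, 2.20, 2.55 and 1.11 CPM. Under FDM at 24 h they read 3.01, 3.20, 2.73 and 5.69 CPM. The groups overlapped, and library 4 was the extreme of each, low with ADTN and high under FDM. The log2 change was -0.66 ± 0.31 (SE), with an unadjusted p of 0.0387 that did not pass adjustment (adjusted p = 0.607). It was -0.46 without ADTN library 4 and -0.37 without FDM library 4. Among the libraries with a high level of small structural RNAs, a level that varied within groups, it was -0.16; these leave out library 4 of both groups.

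At 4 h, TH with ADTN read 3.78, 1.49, 3.68 and 3.42 CPM, and under FDM 4.77, 4.83, 4.04 and 5.23 CPM. Every ADTN library lay below every FDM library. The change was -0.60 ± 0.31 (unadjusted p = 0.0589, adjusted p = 0.363), and -0.37 without ADTN library 2, which read 1.49 CPM; in this comparison 5.79% of all genes had groups that did not overlap. Against untreated retina at 24 h (3.48, 6.85 and 5.07 CPM), TH with ADTN was again lower in every library. That change was the largest of TH in the main and secondary comparisons, -1.15 ± 0.33, with an interval of -1.82 to -0.48 (adjusted p = 0.195). In that comparison 0.0826% of all genes passed and 9.63% did not overlap. Without ADTN library 4 the mean with ADTN at 24 h was 2.67 CPM, against 2.28 CPM with it. Leaving out any 1 library of the compared groups, the change ran from -1.37 to -0.88 (adjusted p 0.141 to 0.575). Diffuser, injection and drug cannot be told apart in this comparison. At 24 h the untreated mean of TH, 5.13 CPM, was above that of every other group. The means were 3.66 CPM under FDM alone, 2.95 with atropine, 3.67 with pirenzepine, 4.07 with TPMPA and 3.92 in recovery. ADTN-treated birds had the lowest mean TH of the 7 conditions at both times, although no such comparison passed. At 4 h this order rested on ADTN library 2: without it the mean was 3.63 CPM, above that with pirenzepine, 3.27 CPM.

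TH in the remaining groups moved within that range. FDM and untreated retina at 4 h stood at 4.72 ± 0.495 and 4.88 ± 0.567 CPM, with a log2 change of -0.05 and an interval of -0.66 to 0.57. At 24 h TH was lower under FDM, 3.66 ± 1.37 CPM against 5.13 ± 1.69 CPM in untreated retina. Those libraries overlapped and the difference did not pass. With pirenzepine at 4 h the libraries fell into a low pair, 2.22 and 1.99 CPM, and a high pair, 4.56 and 4.33 CPM. With atropine, TH was 2.95 ± 0.378 CPM at 24 h against 5.64 ± 1.29 at 4 h without overlap, a change of -0.93 ± 0.31 (adjusted p = 0.872). In that comparison 0% of all genes passed and 2.78% did not overlap.

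**Figure D3:**
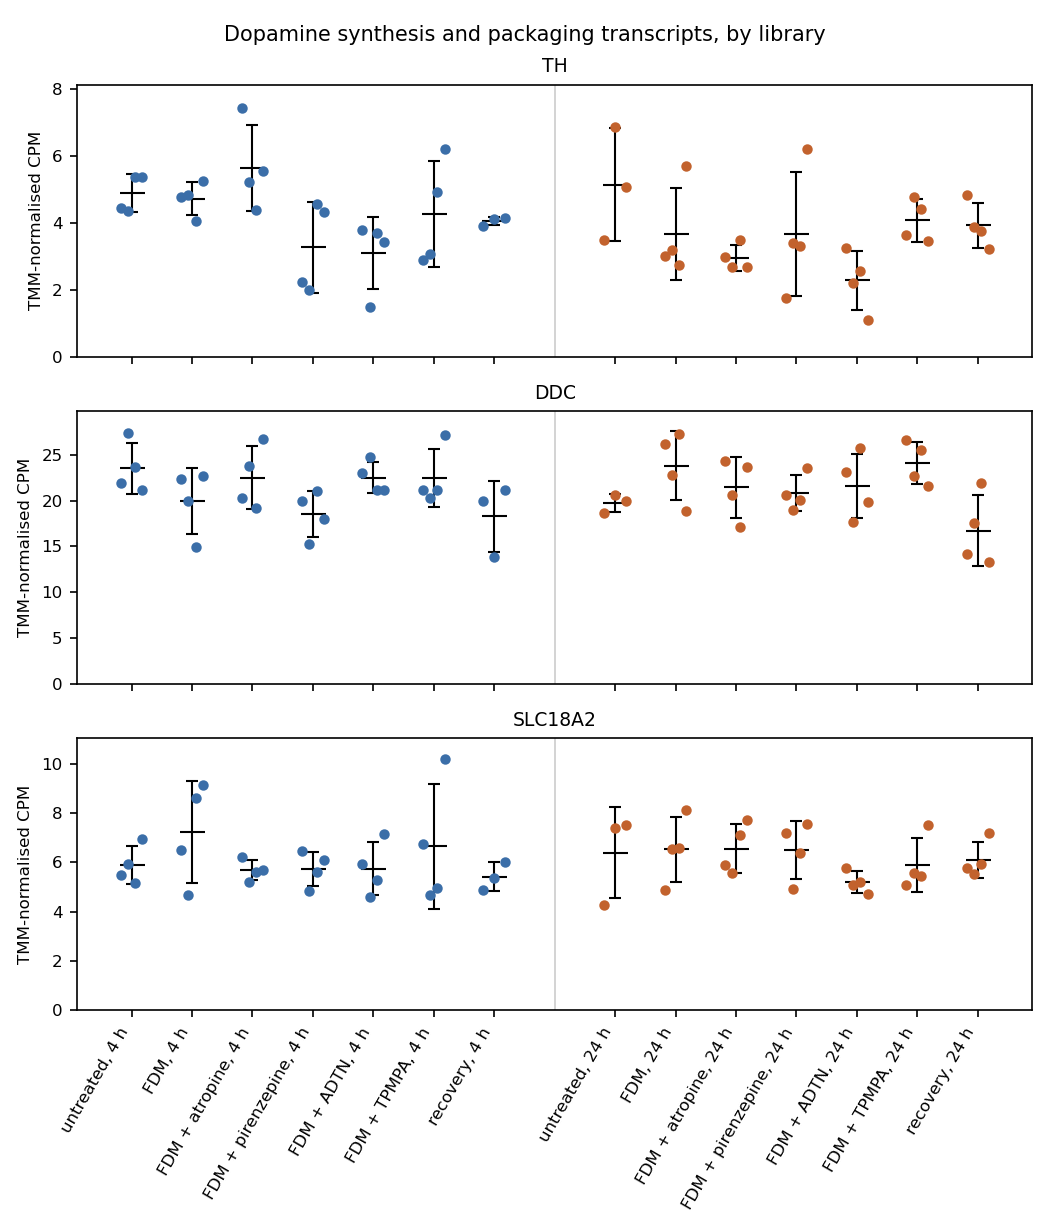
TMM-normalised CPM of TH, DDC and SLC18A2 in every library, by group; points are libraries, bars the mean and SD (n = 4, or 3 for recovery at 4 h and untreated at 24 h). TH with ADTN has the lowest mean at each time, 3.09 CPM at 4 h (3.63 without its library 2, above pirenzepine at 3.27) and 2.28 at 24 h, and DDC is lowest in recovery at 24 h, at 16.7 CPM.

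DDC, the enzyme that completes dopamine synthesis, had its lowest group means in recovering retina, 16.7 CPM at 24 h and 18.3 CPM at 4 h. The place at 4 h rested on library 2, without which the mean was 20.5 CPM, above the means with pirenzepine at 4 h (18.5 CPM), in untreated retina at 24 h (19.7 CPM) and under FDM at 4 h (20 CPM). In recovery at 4 h it read 19.9, 13.8 and 21.1 CPM, and in untreated retina 21.9, 27.4, 23.7 and 21.1 CPM. The recovery libraries lay at or below the untreated ones, the closest pair differing by less than the rounding. The log2 change was -0.37 ± 0.16 (unadjusted p = 0.0303, adjusted p = 0.636), and -0.20 without recovery library 2 (unadjusted p = 0.271). In recovery at 24 h DDC read 14.2, 17.5, 21.9 and 13.3 CPM, and under FDM at 24 h 26.2, 22.8, 27.3 and 18.9 CPM. Recovery library 3 and FDM library 4 overlapped. The change from FDM was -0.51 ± 0.15, with an interval of -0.82 to -0.20, and missed the threshold (adjusted p = 0.0831; 1.17% of all genes passed). It passed with DESeq2 (adjusted p = 0.0449), without FDM library 4 (adjusted p = 0.0301) and without recovery library 3 (adjusted p = 0.0219). Over all its alternatives the adjusted p ran from 0.0219 to 0.346. Mean DDC under FDM at 24 h was itself high, 23.8 CPM, below only that with TPMPA at 24 h, 24.1 CPM. For FDM against untreated, the 24 h change of DDC minus the 4 h change was 0.51 and did not pass (edgeR, unadjusted p = 0.0273, adjusted p = 0.517).

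The clock gene ARNTL stood at 67.2 CPM in recovery at 24 h and at 124 to 200 CPM in the means of the other 13 groups. In recovery at 24 h its libraries read 53.7 to 83.4 CPM. Under FDM at 24 h they read 79.6 to 213 CPM, so these groups overlapped. FDM library 4 had the lowest ARNTL of its group, and also the lowest DDC and the highest TH. Within groups DDC and ARNTL were not related past the threshold over 54 libraries (Pearson r = 0.228, Spearman rho = 0.092, adjusted p = 0.438 and 0.874, permutation test over 32 relations of the 8 genes with 4 sample measures; r = 0.21 without the 2 farthest libraries). These relations use deviations from group means, so they cannot bear on the difference in ARNTL between recovery and the other groups. The cause of the lower DDC mean in recovery was not tested. Against untreated retina at 24 h, DDC in recovery did not differ beyond the spread (16.7 ± 3.91 against 19.7 ± 1.03 CPM).

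SLC18A2, the vesicular transporter, gave no test with an unadjusted p under 0.05 in the main comparisons. Its group means ran from 5.20 ± 0.433 CPM with ADTN at 24 h to 7.23 ± 2.05 CPM under FDM at 4 h. The change with ADTN against FDM had the same sign as that of TH at both times, and its intervals covered 0. At 4 h the change from FDM was -0.34 with ADTN, -0.36 with atropine and -0.34 with pirenzepine. Within groups SLC18A2 was lower in libraries with more small structural RNA (Pearson r = -0.447, Spearman rho = -0.462, adjusted p = 0.0957 and 0.0467, permutation test, n = 54; r = -0.471 without the 2 farthest libraries). Only the rank relation passed the threshold. TH, DRD2 and DRD4 also had negative relations (r = -0.27, -0.309 and -0.335), and DDC and DRD3 positive ones (0.096 and 0.225), none past the threshold. For DRD1 and DRD5 r was -0.005 and -0.055.

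The D1-class receptors had their highest group means after TPMPA at 4 h, a level that DRD1 also reached with pirenzepine at 24 h. DRD5 read 36.6, 42.8, 42.7 and 39.0 CPM with TPMPA and 34.3, 31.2, 36.4 and 28.3 CPM under FDM. Every TPMPA library lay above every FDM library, as was the case for 5.82% of all genes. The log2 change was 0.31 ± 0.10, with an interval of 0.10 to 0.51 (unadjusted p = 0.00453, adjusted p = 0.152). DRD1 read 85.7, 97.8, 115 and 107 CPM with TPMPA and 90.5, 76.4, 85.0 and 82.3 CPM under FDM. TPMPA library 1 lay among the FDM libraries and the other three above them. The change was 0.28 ± 0.08 (unadjusted p = 0.00189, adjusted p = 0.115) and passed without FDM library 1 (adjusted p = 0.0455; 0.0455 to 0.392 over its alternatives).

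At 24 h the same comparison gave no such difference for DRD5, which stood at 34.6 ± 2.91 CPM with TPMPA and 35.9 ± 1.11 CPM under FDM. DRD1 had the higher mean with TPMPA, 97 ± 6.37 CPM against 90 ± 7 CPM under FDM. Its libraries overlapped and the difference did not pass. The difference between the 24 h and 4 h changes of DRD5 was -0.36 ± 0.14 and did not pass (adjusted p = 0.257; 0% of all genes passed). Total counts differed at 4 h, from 12.4 to 22.4 M with TPMPA and from 7.4 to 15.1 M under FDM. With total count as a term the DRD1 change was 0.22 and the DRD5 change 0.25, neither past the threshold. Within groups DRD1 was not related to total count past the threshold (Pearson r = 0.271, Spearman rho = 0.361, adjusted p = 0.429 and 0.232, permutation test).

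ADTN, which acts on these receptors, went with the lowest DRD5 of the experiment. At 24 h DRD5 read 25.7, 25.2, 26.1 and 33.7 CPM with ADTN and 37.5, 35.4, 35 and 35.8 CPM under FDM. All 4 ADTN libraries lay below the FDM libraries, with 3 of them close together and library 4 next to the FDM values. The log2 change was -0.38 ± 0.10, with an interval of -0.59 to -0.17 (unadjusted p = 0.000546, adjusted p = 0.211). Without ADTN library 4 it was -0.49 and passed (adjusted p = 0.0428; 0.0428 to 0.709 over its alternatives). Of the 8 genes 2, DRD5 and DRD4, did not overlap in this comparison, against 4.44% of all genes.

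Because no vehicle group was analysed, ADTN was also set against the mean of the 3 other drug groups. DRD5 at 24 h was 27.7 CPM with ADTN and 33.8 CPM over the other drugs, a change of -0.29 ± 0.09 (adjusted p = 0.0702; 1.09% of all genes passed). It passed with DESeq2 (adjusted p = 0.0253), with limma voom (adjusted p = 0.0489) and without ADTN library 4 (adjusted p = 0.0192), with a range of 0.0192 to 0.269 over its alternatives. At 4 h DRD5 was 28.5 CPM against 34.5 CPM, a change of -0.26 ± 0.08 (adjusted p = 0.175; 0.0381% of all genes passed). The group means behind that average were 30.4 CPM with atropine, 32.9 CPM with pirenzepine and 40.3 CPM with TPMPA. DRD1 at 24 h was 86.2 CPM with ADTN and 95.4 CPM over the other drugs, a change of -0.15 ± 0.07 (unadjusted p = 0.0409, adjusted p = 0.3). The group means behind that average were 88.4 CPM with atropine, 101 CPM with pirenzepine and 97 CPM with TPMPA. Under FDM DRD1 stood at 90.0 ± 7.00 CPM.

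**Figure D4:**
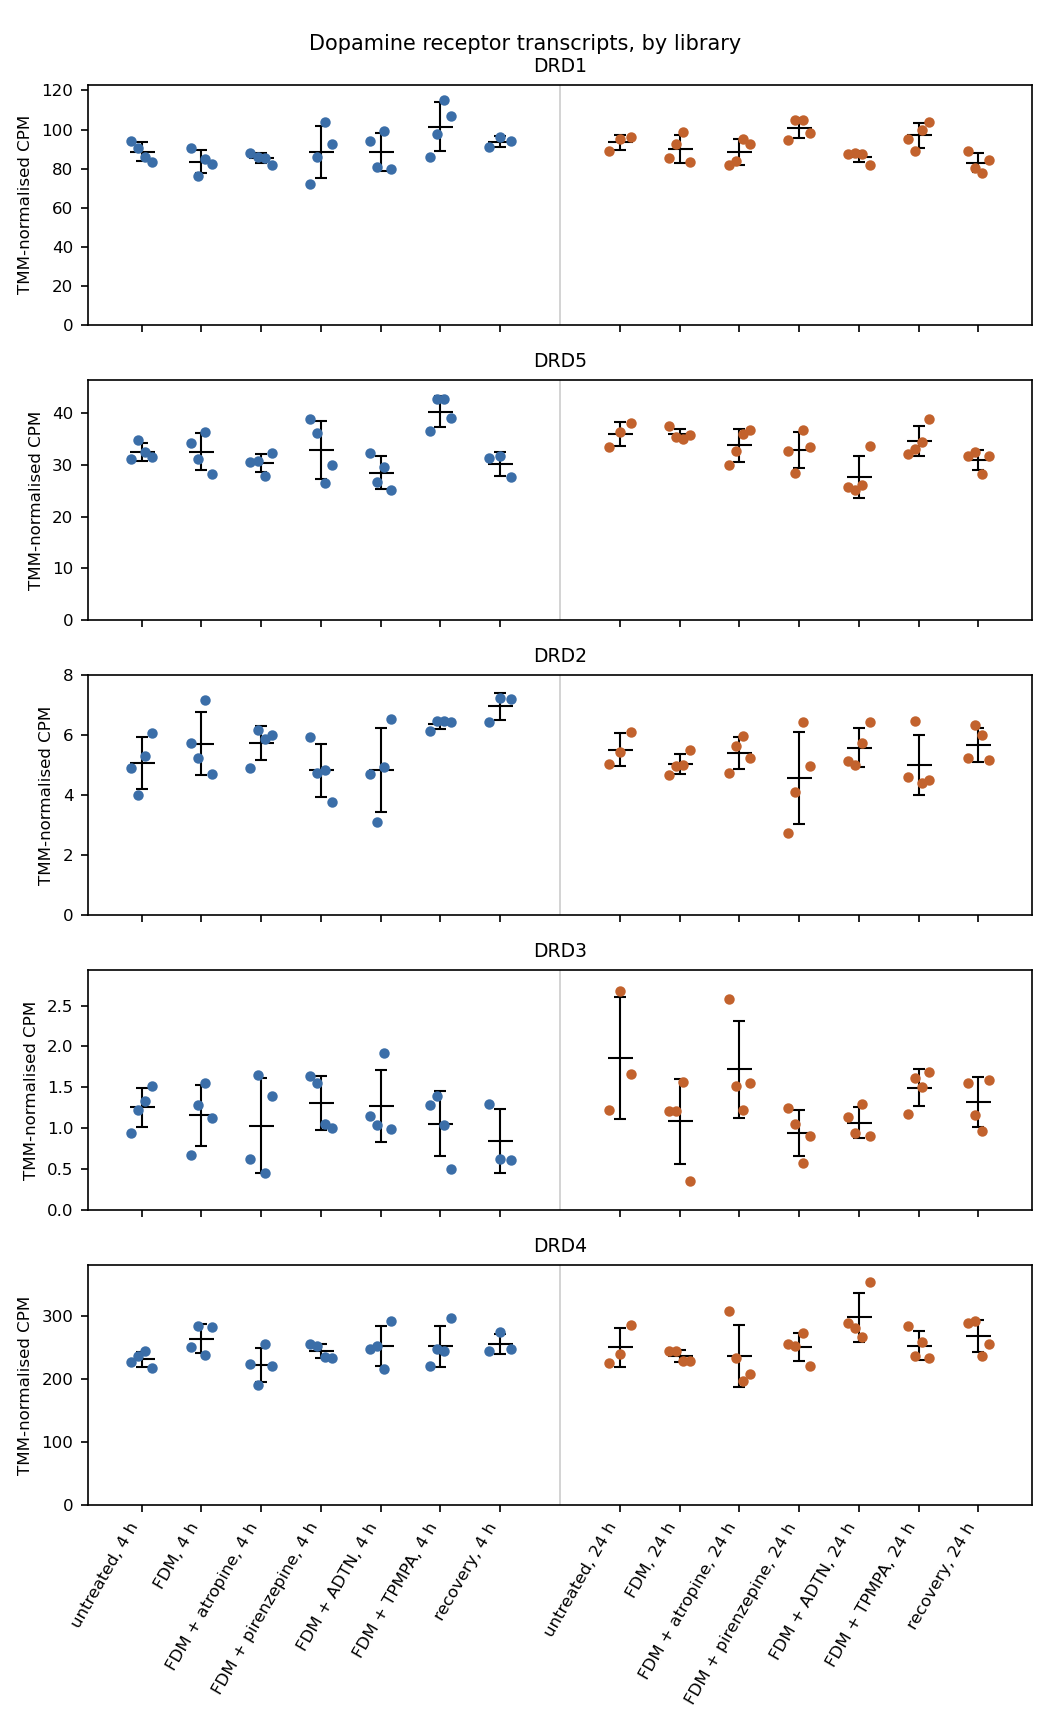
TMM-normalised CPM of the 5 receptor transcripts in every library, by group; points are libraries, bars the mean and SD (n = 4, or 3 for recovery at 4 h and untreated at 24 h). DRD5 is highest with TPMPA at 4 h (mean 40.3 CPM) and lowest with ADTN at 24 h (27.7 CPM), where DRD4 is highest (298 CPM).

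DRD4, the D2-class receptor best known from photoreceptors, was highest with ADTN at 24 h. It read 289, 281, 266 and 354 CPM with ADTN and 244, 245, 228 and 228 CPM under FDM. Every ADTN library lay above every FDM library. The log2 change was 0.33 ± 0.11, with an interval of 0.11 to 0.55 (unadjusted p = 0.00352, adjusted p = 0.362), and 0.24 without ADTN library 4. It was 0.22 among the libraries high in small structural RNA, which also leave out library 4 of both groups. Against the other 3 drugs at 24 h the change was 0.27 ± 0.09 (adjusted p = 0.102). It passed with total count as a term (adjusted p = 0.0401) and without atropine library 1 (adjusted p = 0.0334), with a range of 0.0334 to 0.317. Without ADTN library 4 it was 0.18 (adjusted p = 0.317). At 4 h DRD4 stood at 252 ± 31.3 CPM with ADTN and 264 ± 23.1 CPM under FDM, and the difference between the 24 h and 4 h changes was 0.40 ± 0.15 (adjusted p = 0.679; 0% of all genes passed).

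DRD4 levels also moved with depth. Within groups DRD4 was lower in deeper libraries (Pearson r = -0.507, Spearman rho = -0.461, adjusted p = 0.0528 and 0.0467, permutation test, n = 54; r = -0.456 without the 2 farthest libraries). DRD4 held 3.02 counts per base on average, rank 210 of the tested genes, and its log count increased by 0.84 per unit of log depth, compared with 0.707 for the 100 genes nearest to it in density and 1.16 for 100 genes of middle density. An increase below 1 means that a gene's share of the total count is lower in deeper libraries. It was fitted on raw counts over all 54 libraries without regard to group. DRD3 was also below 1, at 0.896, but its CPM had no relation to depth within groups (Pearson r = 0.012). ADTN library 4 at 24 h was both the shallowest of its group and the highest in DRD4. With total count as a term the change from FDM was 0.30.

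**Figure D5:**
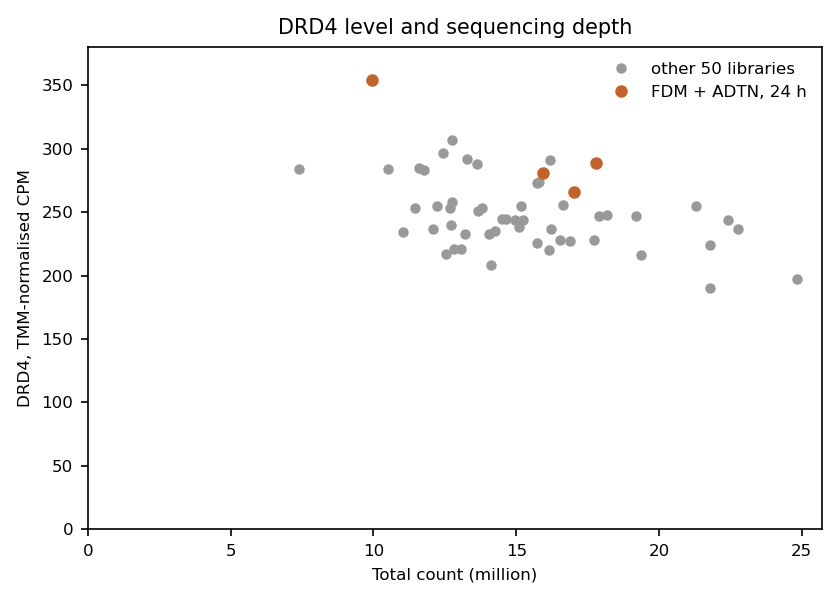
DRD4 in TMM-normalised CPM against total count in M, each point a library; the 4 ADTN libraries at 24 h are in orange and the other 50 in grey. The highest DRD4, 354 CPM, belongs to the ADTN library with 9.97 M counts, and the remaining 3 ADTN libraries lie between 266 and 289 CPM.

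With atropine at 4 h DRD4 read 224, 190, 255 and 221 CPM, against 251, 284, 238 and 283 CPM under FDM. The groups overlapped, and the change was -0.25 ± 0.11 (unadjusted p = 0.0259, adjusted p = 0.329). Total counts ran from 12.8 to 21.8 M with atropine and from 7.4 to 15.1 M under FDM, and with total count as a term the change was -0.10 (adjusted p = 0.784). Atropine at 4 h had the lowest group mean of DRD4, 222 ± 26.6 CPM.

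DRD2, the D2-class receptor that dopaminergic cells themselves carry as an autoreceptor, was highest in recovery at 4 h. It read 6.45, 7.24 and 7.20 CPM there and 4.91, 4.00, 5.30 and 6.08 CPM in untreated retina. The groups did not overlap. The change was 0.46 ± 0.20, with an interval of 0.06 to 0.86 (unadjusted p = 0.0244, adjusted p = 0.621). In this comparison 4 of the 8 genes did not overlap, against 7.66% of all genes: TH and DDC were lower and DRD2 and DRD4 higher, and none passed. The gap was very narrow for DRD4, with at least 245 CPM in recovery and at most 244 CPM in untreated retina. It was also narrow for DDC, whose closest libraries both read 21.1 CPM. At 24 h DRD2 stood at 5.69 ± 0.567 CPM in recovery and 5.53 ± 0.547 CPM in untreated retina. There 1 of the 8 genes did not overlap, DRD5, at 31.0 ± 1.95 against 36.0 ± 2.37 CPM (adjusted p = 0.442), where 12.5% of all genes did not overlap.

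DRD3, a D2-class receptor with high affinity for dopamine, could not be ranked between groups. Its group means ran from 0.847 CPM in recovery at 4 h to 1.85 CPM in untreated retina at 24 h. The widest difference was pirenzepine against untreated at 24 h, 0.946 against 1.85 CPM, where the libraries overlapped (log2 change -0.97 ± 0.41, adjusted p = 0.28; 1.43% of all genes passed). Without untreated library 2, which read 2.68 CPM, the change was -0.61 (adjusted p = 0.744).

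No gene of the cofactor of dopamine synthesis passed in a main comparison. All 7 genes listed as making, recycling or regulating tetrahydrobiopterin, the cofactor TH requires, were measured. Of their 84 tests in the 12 main comparisons 0 passed, with 17 at an unadjusted p under 0.05 (edgeR), or 20.2%, against 11.1% over all genes. SPR, which makes the last step of the cofactor's synthesis, was higher in recovery than under FDM at 24 h, where DDC was lower. It stood at 18.5 ± 3.01 against 11.8 ± 0.867 CPM (log2 change 0.64 ± 0.15, adjusted p = 0.016). This call was lost without FDM libraries 1 or 3 or recovery libraries 1 or 2 (adjusted p up to 0.0876), and when only the groups compared were fitted (adjusted p = 0.0948). GCH1, the first and limiting enzyme of the cofactor, stood at 14.3 ± 5.41 CPM with TPMPA at 24 h and 8.72 ± 1.42 CPM under FDM (adjusted p = 0.256), and at 11.6 ± 1.02 CPM without TPMPA library 2, which read 22.3 CPM.

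Among 20 tested genes of dopamine receptor signalling, of 27 listed, 2 rose in a main comparison and 0 fell, or 0.833% of 240 tests, against 0.593% over all genes. RGS4, which shortens signalling by inhibitory G proteins, rose with TPMPA at 4 h, from 68.1 ± 3.12 to 96.1 ± 10.5 CPM (log2 change 0.50 ± 0.11, adjusted p = 0.0228). It was lost without FDM libraries 2, 3 or 4 or TPMPA libraries 3 or 4 (adjusted p up to 0.11), with only the groups compared (adjusted p = 0.0724) and with total count as a term (adjusted p = 0.0555). In this comparison 0.47% of all genes passed. GNAI1, an inhibitory G protein subunit, rose with pirenzepine at 24 h, from 74.9 ± 7.29 to 131 ± 36.0 CPM (log2 change 0.81 ± 0.18, adjusted p = 0.0065), where 1.63% of all genes passed. It was lost without pirenzepine library 4 (adjusted p = 0.0661), with only the groups compared (adjusted p = 0.0958) and among the libraries high in small structural RNA (adjusted p = 0.053). The median log2 change of the list was 0.068 with TPMPA at 4 h, where that of all genes was 0.023, and -0.021 with pirenzepine at 24 h, against -0.003. PPP1R1B, the D1-class effector of the striatum, stood at 0.479 CPM.

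Melatonin, which dopamine opposes in the retina, shares its first step with serotonin. TPH1, the hydroxylase of that step, was among 4 measured genes of the pathway, of which 1 passed in 3 main comparisons, or 6.25% of 48 tests, against 0.593% over all genes. In recovery at 24 h TPH1 stood at 11.8 ± 1.66 CPM. It was higher in untreated retina, at 29.1 ± 2.51 CPM (log2 change of recovery -1.30 ± 0.30, adjusted p = 0.0238), and under FDM, at 32.7 ± 7.97 CPM (-1.47 ± 0.28, adjusted p = 0.0033). The call against FDM held in all 19 alternatives. That against untreated retina was lost without any one of untreated libraries 1 to 3 or recovery libraries 1, 2 or 4 (adjusted p up to 0.147), and with limma voom (adjusted p = 0.0709). The summed vessel markers were 159 to 284 CPM in recovery and 42.8 to 52.8 CPM in untreated retina at 24 h, without overlap, and with their level as a term the change was -1.52 (adjusted p = 0.0352). At 4 h TPH1 was higher with atropine (log2 change 1.04 ± 0.28, adjusted p = 0.0484) and with ADTN (1.43 ± 0.28, adjusted p = 0.00824) than under FDM alone. This FDM group also had the lowest mean ARNTL at 4 h, 124 CPM (101 to 179), against means of 179 to 200 CPM elsewhere. The part of a low FDM group in these differences was not tested. Against untreated retina at 4 h TPH1 passed with none of the 4 drugs. The FDM libraries at 4 h ranged widely, from 12.4 to 39.1 CPM, and both calls were lost without FDM library 2 or 4, that with atropine also without FDM library 3 or atropine libraries 1, 2 or 4 (adjusted p up to 0.227). The call with atropine held in 4 of 11 other settings (DESeq2, the small-RNA level as a term, libraries low in small RNA and the replicate block), with an adjusted p of up to 0.502. That with ADTN was also lost with only the groups compared (adjusted p = 0.189) and with the vessel level as a term (adjusted p = 0.0698). With pirenzepine or TPMPA at 4 h TPH1 did not pass against FDM. The mean of the 4 drug groups takes in atropine and ADTN, so it cannot show whether the difference extended to the other drugs. Over that mean TPH1 at 4 h was 44 CPM, against 20.7 CPM under FDM (log2 change 1.065 ± 0.24, adjusted p = 0.0098). In that comparison 1.58% of all genes passed. The call held in 25 of 30 alternatives and was lost without any one of FDM libraries 2, 3 or 4.

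Over the 14 group means, which share libraries and normalisation, the patterns most like that of TH among 10124 genes were those of RAPGEF4 (Pearson r = 0.782, Spearman rho = 0.736), OPN4-1 (0.774 and 0.714), CXCR4 (0.769 and 0.785), SWT1 (0.767 and 0.67) and USP3 (0.747 and 0.727). OPN4-1 encodes a melanopsin. The most opposite were REXO4 (-0.783 and -0.811), FBXL12 (-0.773 and -0.798) and PARP1 (-0.769 and -0.626). For DRD4 the most similar were TOMM22 (0.847 and 0.631), FAM32A (0.839 and 0.741), RPS26 (0.822 and 0.741), PSMB4 (0.818 and 0.745) and NUDCD3 (0.817 and 0.662), and the most opposite GCN1 (-0.865 and -0.89), TCAIM (-0.856 and -0.829) and DCP2 (-0.817 and -0.802). No p is given for these, and genes are not independent replicates.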

How the data were processed

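Whole-retina RNA of 54 libraries was analysed from raw counts per Ensembl transcript as the authors deposited them; the submitters' processing notes list galGal5 as the build and HISAT2 2.1, Trimmomatic 0.36, HOMER, limma and edgeR as tools, and the labels' protocols give directional paired-end libraries (75 cycles, RNA integrity number above 7.0). Deposited transcript lengths and coordinates, in bases (a unit other than counts), were used for levels per kb and positions. The table held 38118 transcript entries; for each of 24599 gene names the entry with the largest summed count was used (DRD2 had 3 entries and DRD3 4, which share reads). Counts were filtered with filterByExpr (minimum count 10, minimum total 15), normalised by TMM and fitted in edgeR 4.0.16 (robust quasi-likelihood, R 4.3.3) with 14 group means; p-values are two-sided. Standard errors were derived from the F statistic. CPM are TMM-normalised, given as mean ± SD. Main comparisons were FDM against untreated, each drug against FDM and recovery against untreated; secondary ones are named where used. Relations to sample measures used 100000 permutations within groups. DESeq2 1.42.0, limma 3.58.1 (voom) and other settings were alternatives. The test was run on simulated data whose changes were larger than most member changes given here. That run therefore does not bear on how well changes of the members' size are detected. Total counts were 7.4 to 24.8 M. Genes, lists and tests were chosen with earlier results of these data known. Every member is named; from each list up to 4 genes past the threshold in a main comparison were to be named, and SPR, GCH1, PPP1R1B and ARNTL were added after their values were seen. No 2 libraries of a group were alike within sampling noise (chi-square per degree of freedom at least 4.76). Results of 2 further gene lists are not reported here.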

Additional observations from a re-analysis of the deposited data

Results flagged for a closer look

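In 96 sets of 4 libraries (8 genes in 12 groups) 8 held a library set apart by a gap larger than Dixon's limit; chance gives about 1 set in 20. TH in ADTN library 2 at 4 h read 1.49 CPM, below the other three at 3.42 to 3.78. TH in FDM library 4 at 24 h read 5.69 CPM, above 2.73 to 3.20. DDC in TPMPA library 4 at 4 h read 27.2 CPM, above 20.3 to 21.2. In ADTN library 4 at 24 h DRD1 read 81.8 CPM, below 87.4 to 87.8, and DRD5 read 33.7 CPM, above 25.2 to 26.1. DRD5 in recovery library 3 at 24 h read 28.2 CPM, below 31.7 to 32.5. DRD2 in TPMPA library 1 at 4 h read 6.14 CPM, below 6.45 to 6.48, and in TPMPA library 2 at 24 h 6.49 CPM, above 4.42 to 4.61.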

How the results depend on the processing

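For the 12 main comparisons 0 members passed with DESeq2, limma voom, upper-quartile factors, no filter on low counts, transcript entries summed, only the groups compared, or the vessel level, small-RNA level or total count as a term; 8 to 12 tests then had an unadjusted p under 0.05. Libraries low or high in small RNA allowed 3 comparisons each, with 0 called. Leaving out 1 library gave 2 calls in 744 tests, so the count ran from 0 to 1 for TPMPA against FDM at 4 h (1, DRD1, without FDM library 1) and from 0 to 1 for ADTN against FDM at 24 h (1, DRD5, without ADTN library 4). In the secondary comparisons, which had 0 member calls in 168 tests (21 at an unadjusted p under 0.05), DESeq2 gave 2 and limma voom 1; DRD5 with ADTN against untreated at 24 h passed without ADTN library 4 (adjusted p = 0.0399; 0.0399 to 0.531 over its alternatives). The cause of these changes was not tested. No change with an unadjusted p under 0.05 in the main and secondary comparisons reversed. The differences between the 24 h and 4 h changes were refitted with DESeq2 and limma voom alone. DRD5 with TPMPA gave -0.35 with each, and DRD4 with ADTN 0.39 with each. DDC under FDM gave 0.51 with DESeq2 and 0.54 with limma voom. None passed the threshold (adjusted p 0.22 to 0.758). Applying every setting to the secondary comparisons was chosen after seeing the data.

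Same-numbered libraries did not all deviate together in any main comparison: their correlations ran from -0.108 to 0.422, and in none were all above 0.1. Some pairs did correlate, as in FDM against untreated at 4 h, where 2 of 4 pairs lay above 0.1 and the highest was 0.422. With the replicate block 0 members passed in the main comparisons, as without it, and 8 tests had an unadjusted p under 0.05.

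TH and DRD3 had the fewest counts, as low as 11 and 6 a library, and the widest intervals; the part of depth in this was not tested.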
